A study of Mus musculus with 6 samples.

Results

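The genes described here are 10 peptide hormone genes of the pancreatic islet and the gut: Gcg, Ghrl, Sst, Ins1, Ins2, Iapp, Pyy, Sct, Gip and Cck. They were taken as a list of names, with no threshold on a measured value, and all 10 are among the 31028 genes of the single-cell RNA table; 9 of them, all but Gip, are among the 8269 genes of the single-cell chromatin tables. The study profiled the early mouse pancreas (strain C57BL/6) in wild-type embryos (WT, genotype Ptf1a+/+) and in embryos homozygous for a deletion of a Ptf1a enhancer (KO, genotype Ptf1aenh-delta/enh-delta). At embryonic day (E) 10.5 multipotent pancreatic progenitor regions were dissected and 5 to 9 embryos were pooled for each dataset, which gave 1 RNA library and 1 chromatin library (ATAC-seq, which reads open chromatin) of each genotype. At E13.5 pancreas from 6 embryos was pooled for each of 1 WT and 1 KO chromatin library, so each of the 6 groups is 1 library and no group has a replicate. A difference between genotypes or stages is therefore a difference between libraries, no p-value is given, and the intervals below cover counting error only. The E13.5 cell barcodes name July2020 for WT and Sept2020 for KO, and genotype cannot be told apart from month at that stage.

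Peptide hormones are made as precursors that prohormone convertases cut in secretory granules. In the adult islet, alpha cells make glucagon (Gcg), beta cells insulin (Ins1 and Ins2 in the mouse) with amylin (Iapp), delta cells somatostatin (Sst) and the rare epsilon cells ghrelin (Ghrl), while enteroendocrine cells of the gut make peptide YY (Pyy), secretin (Sct), gastric inhibitory polypeptide (Gip) and cholecystokinin (Cck). The first endocrine cells of the mouse pancreas leave a Neurog3-expressing precursor state early in development, and many of them make glucagon. Ptf1a is a transcription factor of pancreatic progenitors and acinar cells.

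Because Gcg, Ghrl, Ins1, Iapp and Pyy carry most of the comparisons below, the 250 bases before their transcription starts are shown first. RefSeq (GRCm38.p6) promoters matched 9 of the 10 genes, and for a gene with several entries the one that starts farthest upstream was taken. The Gcg sequence is chr2:62483654-62483903 on the minus strand, the Ghrl sequence chr6:113719912-113720161 on the minus strand and the Ins1 sequence chr19:52264047-52264296 on the plus strand. The Iapp sequence is chr6:142298175-142298424 on the plus strand and the Pyy sequence chr11:102107833-102108082 on the minus strand. Capitals mark matches on either strand to CANNTG, the E-box that basic helix-loop-helix factors such as Neurog3 and Ptf1a can bind, or to TAAT, the core bound by many homeodomain factors.
Gcg: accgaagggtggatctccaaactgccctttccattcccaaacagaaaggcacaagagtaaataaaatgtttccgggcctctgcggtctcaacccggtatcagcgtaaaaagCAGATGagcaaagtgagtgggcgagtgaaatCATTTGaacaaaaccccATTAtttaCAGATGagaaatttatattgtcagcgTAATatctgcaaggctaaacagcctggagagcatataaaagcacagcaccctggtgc
Ghrl: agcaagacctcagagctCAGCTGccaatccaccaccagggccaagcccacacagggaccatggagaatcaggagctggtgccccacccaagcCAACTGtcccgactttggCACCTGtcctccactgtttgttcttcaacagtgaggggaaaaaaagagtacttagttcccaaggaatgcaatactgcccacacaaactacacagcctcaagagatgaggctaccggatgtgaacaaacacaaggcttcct
Ins1: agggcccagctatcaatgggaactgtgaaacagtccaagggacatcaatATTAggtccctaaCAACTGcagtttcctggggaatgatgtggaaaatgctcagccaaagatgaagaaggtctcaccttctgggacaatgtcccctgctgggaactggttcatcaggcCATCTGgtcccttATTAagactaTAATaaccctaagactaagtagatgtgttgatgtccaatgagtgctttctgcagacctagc
Iapp: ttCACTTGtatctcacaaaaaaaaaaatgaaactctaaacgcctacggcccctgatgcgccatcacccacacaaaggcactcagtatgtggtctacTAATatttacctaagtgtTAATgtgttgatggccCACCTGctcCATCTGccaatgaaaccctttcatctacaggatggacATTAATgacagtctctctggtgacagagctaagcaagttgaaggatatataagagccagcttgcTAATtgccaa
Pyy: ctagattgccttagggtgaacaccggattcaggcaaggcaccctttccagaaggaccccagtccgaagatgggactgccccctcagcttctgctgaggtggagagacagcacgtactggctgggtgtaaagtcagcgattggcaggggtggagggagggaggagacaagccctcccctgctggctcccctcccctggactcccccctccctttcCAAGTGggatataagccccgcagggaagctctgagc
The Gcg sequence holds 3 E-box letters and 2 TAAT cores, Ins1 holds 2 and 3, and Iapp holds 3 and 5. Ghrl (3 E-boxes) and Pyy (1 E-box) hold no TAAT core in this window. No E-box overlapped a TAAT core in these 5 sequences. All 9 matched promoters hold at least 1 E-box, 6 hold a TAAT core and 6 a TATAA on either strand. Of 32851 RefSeq promoter windows of the same length, 66.2% hold CANNTG, 54.9% hold TAAT and 22.8% hold TATAA. These are matches of letters, not sites shown to be bound.

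The RNA libraries held 1104 WT and 815 KO barcodes, of which 451 and 369 had at least 1000 detected genes and were kept, with a median of 6700 and 9856 UMIs (counts of distinct captured RNA molecules). Ptf1a, the gene whose enhancer was deleted, gave 142 UMIs in kept WT cells against 0 in KO, a count that allows up to 0.748 CPM (counts of a gene scaled to the same total of UMIs in every group of cells). Cells were clustered without the 10 hormone genes, so that their levels did not place a cell in its cluster. Cluster 2, with 57 WT and 125 KO cells, was endocrine-like: 27 of 28 non-hormone endocrine markers were detected in each library, and they summed to 8504 CPM in WT and 9332 in KO, against 314 and 306 in the kept cells outside it and cluster 4. Neurod2 was the marker at 0. The hepatobiliary list was also higher there (7879 and 6383 CPM against 1327 and 2591 in those same other cells), and of its 12 genes 2 were at least 2-fold higher. So were the neural and neural crest list (225 and 228 CPM against 45.6 and 60.4) and the tip and acinar list (591 and 432 against 420 and 57.7). Of their 9 and 13 genes, 3 and 1 were at least 2-fold higher in each library. Cluster 4 (30 WT and 49 KO cells) passed the naming rule as mesenchyme-like and is given by its number, because its cells also carried endocrine markers at 4947 and 4900 CPM beside mesenchyme markers at 1064 and 987. At least 3 markers of each of the 2 lists were detected in 80.0% of its WT and 81.6% of its KO cells, and its cells held a median of 20206 and 17169 UMIs against 11434 and 9819 in the endocrine-like cluster. The doublet caller marked 1 WT and 5 KO cells of cluster 4; whether the others are doublets was not tested.

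The first question was how much hormone RNA the E10.5 endocrine-like cells held and which hormones led. The 10 genes took 1.06% of all kept UMIs in WT and 1.54% in KO, and 4.29% and 3.54% within the endocrine-like cells. In single endocrine-like cells the share ran from 0.080% to 10.5% in WT (median 3.49%) and from 0.037% to 13.5% in KO (median 1.91%). Gcg was the most abundant in both libraries, with 24029 CPM in WT (95% exact Poisson interval 23661 to 24400) and 17557 in KO (17326 to 17789). Pyy followed with 13907 and 10512 CPM. These are 3′-end counts, in which a molecule counts once whatever the length of its transcript.

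Below these 2 genes came Ghrl (1611 CPM in WT, 3673 in KO), Sct (1525 and 1231) and Iapp (643 and 1169). Cck stood at 385 and 585 CPM. The insulin genes were low, with Ins1 at 349 and 277 CPM and Ins2 at 139 and 119. Ins1 and Ins2 are near-identical paralogs, and the treatment of reads that fit both was not stated, so the split between them is uncertain. Sst was at 174 and 264 CPM. Gip was lowest, at 108 CPM in WT and 11.1 in KO. In the order of levels some neighbours had overlapping intervals. In WT these were Ghrl and Sct (1517 to 1709 and 1434 to 1621), Cck and Ins1 (339 to 434 and 306 to 397), and Sst and Ins2 (144 to 208 and 112 to 170). The WT intervals of Ins2 and Gip overlapped as well (112 to 170 and 84.3 to 135). In KO the Sct and Iapp intervals overlapped (1171 to 1294 and 1110 to 1230), as did those of Ins1 and Sst (249 to 308 and 236 to 294).

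**Figure D1:**
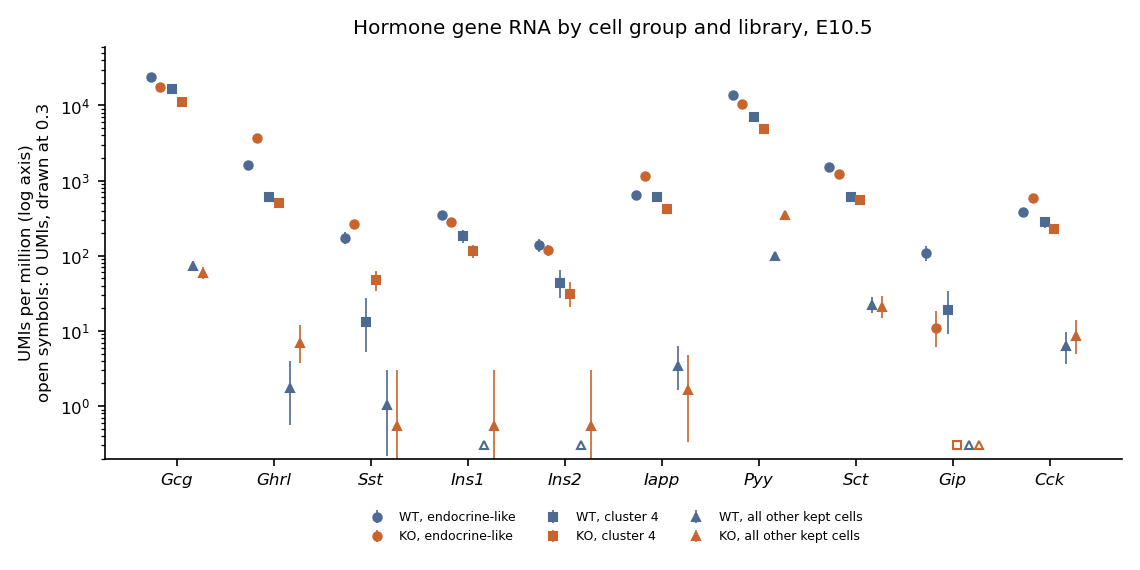
CPM of each hormone gene (log axis) in the endocrine-like cluster (circles), in cluster 4 (squares) and in all other kept cells (triangles) of the WT (blue) and KO (orange) RNA libraries at E10.5; bars are 95% exact Poisson intervals and open symbols are groups with 0 UMIs. Gcg and Pyy are above 10000 CPM in the endocrine-like cells and at or below 353 in the other kept cells.

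The spread over cells differed between genes. Pyy was the most widely detected, with a UMI in 96.5% of WT and 92% of KO endocrine-like cells and a median of 126 and 89 UMIs per cell. Sct had a UMI in 93.0% and 87.2%, and Cck in 66.7% and 77.6%. Gcg was detected in 38 of 57 and 75 of 125 cells, and its level differed widely between them. The median over all endocrine-like cells was 76 UMIs in WT and 2 in KO, while the cells with at least 10 UMIs held a median of 410 and 307 and a maximum of 1264 and 1194. Ghrl had a UMI in 36.8% and 42.4%, Iapp in 56.1% and 54.4%, Ins1 in 22.8% and 15.2%.

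Several low sums rested on few cells. Of the 118 WT Sst UMIs, 92.4% were in 1 cell, which held 109 Sst UMIs beside 330 Gcg UMIs. In KO 3 cells held 87.4% of the 333 Sst UMIs. A single WT cell held 72 of the 94 Ins2 UMIs, 70 of the 237 Ins1 UMIs and 49 of the 73 Gip UMIs, together with 1264 Gcg and 103 Ghrl UMIs. In KO the cell with the most Ins2 held 100 of the 150 UMIs, with 161 Iapp and 157 Ghrl UMIs but 30 of Gcg and 0 of Ins1. For Gcg and Pyy no cell held over 7.75% of the sum in either library.

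A finer split, also made without the hormone genes, divided the endocrine-like cluster into a sub-cluster led by Neurog3 (12 WT and 38 KO cells) and a sub-cluster led by Cartpt and Gast (45 and 87 cells). Neurog3, the factor that starts the endocrine programme, leads the first; Cartpt and Gast, which encode the CART peptide and gastrin, lead the second. The hormone genes divided into 2 kinds across them. Gcg lay mostly in the Cartpt/Gast-led cells, with 28669 CPM in WT and 23014 in KO, and had 1 and 11 UMIs in all the Neurog3-led cells. Iapp had 2 WT and 7 KO UMIs in the Neurog3-led cells against 434 and 1467 in the others, and Ins1 had 2 and 2 against 235 and 348. Sst and Ins2 had 0 UMIs in the Neurog3-led cells of both libraries.

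Pyy, Sct, Ghrl and Cck were also present in the Neurog3-led cells. There Pyy was at 5152 CPM in WT and 4442 in KO, a level 3.03-fold (2.78 to 3.30) and 2.79-fold (2.64 to 2.96) below that of the Cartpt/Gast-led cells. Sct was at 847 and 998 CPM against 1657 and 1304, and Ghrl at 628 and 1068 against 1801 and 4484. The Ghrl UMIs of the Neurog3-led cells lay in few cells, with 2 WT and 3 KO cells at 10 UMIs or more, and the top 3 KO cells held 98.8% of them. Cck went the other way, at 737 and 1045 CPM in the Neurog3-led cells against 317 and 442. Past a 2-fold difference (log2 of at least 1, with 10 CPM added to both levels), 8 of 10 hormone genes tested in WT were higher in the Cartpt/Gast-led cells, all but Sct and Cck, where 5.92% of 2349 genes were, and Cck was lower, where 3.66% were. In KO, 7 of 9 tested were higher (all but Sct and Cck), against 3.53% of 4336 genes, and Cck was again lower, against 2.77%. In WT, Gcg, Sst, Ins1, Ins2, Iapp and Gip had at most 2 UMIs in the Neurog3-led cells, and in KO, Gcg, Sst, Ins1, Ins2 and Iapp had at most 11. These genes passed the minimum of 50 UMIs only through the sub-cluster where they were high and so had to differ, and nothing is read from the 2 counts of higher genes.

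**Figure D2:**
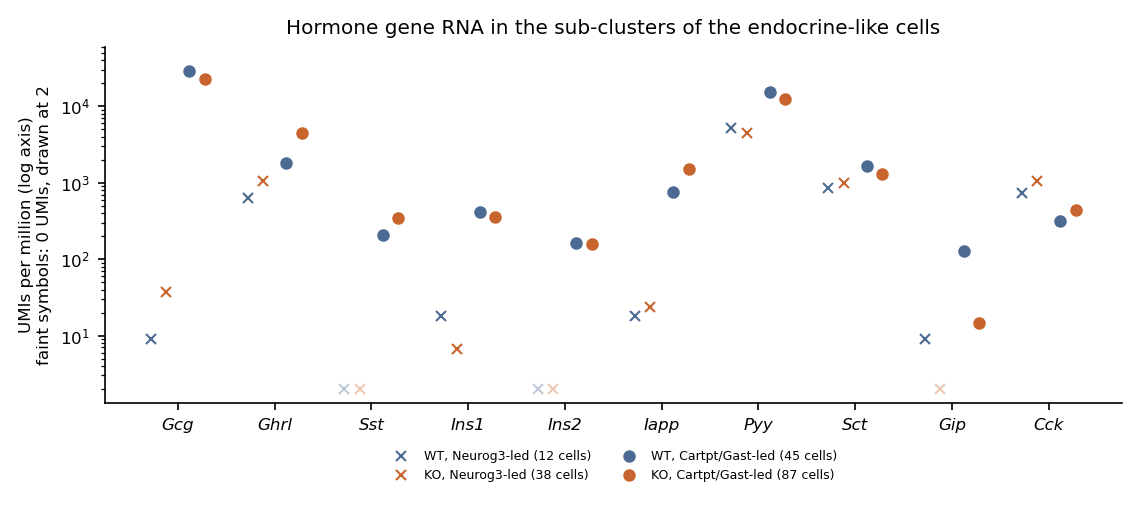
CPM of each hormone gene (log axis) in the Neurog3-led (crosses) and the Cartpt/Gast-led (circles) sub-cluster of the endocrine-like cells, for WT (blue) and KO (orange); faint symbols are 0 UMIs. Gcg, Iapp and the insulin genes lie far apart between the sub-clusters, Pyy and Sct lie within 3.03-fold of each other, and Cck is the gene that is higher in the Neurog3-led cells.

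The second question was which hormones shared a cell. A cell was called high for a hormone at 10 or more UMIs. Most endocrine-like cells were high for several hormones: in WT 5 of 57 cells were high for none, 7 for 1, 16 for 2, 12 for 3, 10 for 4, 6 for 5 and 1 for 8. In KO 13 of 125 were high for none, 23 for 1, 31 for 2, 30 for 3, 15 for 4, 9 for 5, 3 for 6 and 1 for 7. The hormone with the most UMIs among those high was Gcg in 24 WT and 41 KO cells, Pyy in 21 and 50, Ghrl in 2 and 13, Sct in 3 and 5, and Cck in 2 and 3. No cell was led by Sst, Ins1, Ins2, Iapp or Gip, which for 0 of 57 and 0 of 125 cells leaves 95% exact binomial upper limits of 6.27% and 2.91%.

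Gcg and Pyy shared most of the Gcg-high cells. Of 33 Gcg-high WT cells 32 were Pyy-high (97.0%, 95% exact binomial interval 84.2% to 99.9%), and of 59 in KO 58 were (98.3%, interval from 90.9%). Among the cells not high for Gcg, 14 of 24 in WT (58.3%) and 44 of 66 in KO (66.7%) were Pyy-high. Within the Cartpt/Gast-led cells the difference was small: of those not high for Gcg, 11 of 12 in WT (91.7%) and 24 of 28 in KO (85.7%) were Pyy-high. Spearman's rho of the 2 genes there, on UMIs per 10000 UMIs of the cell, was -0.07 in WT and 0.11 in KO, against 0.31 and 0.41 over all endocrine-like cells. Pyy was thus high in most Cartpt/Gast-led cells, with or without Gcg.

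Iapp was nested within the Gcg-high cells. All 13 Iapp-high WT cells and 23 of 25 in KO were Gcg-high; Iapp-high cells made up 39.4% (22.9% to 57.9%) and 39.0% (26.5% to 52.6%) of the Gcg-high cells and 0 of 24 and 2 of 66 of the rest. The shares of the Gcg-high cells moved with the threshold: at 30 UMIs they were 15.2% in WT and 26.4% in KO, and at 3 UMIs 45.9% and 61.3%. Of the cells not high for Gcg, 12 in WT and 38 in KO were Neurog3-led, and no Neurog3-led cell was Iapp-high. Insulin was nested further. The 6 WT cells and 9 KO cells high for Ins1 or Ins2 were all Gcg-high, with a median of 748 and 498 Gcg UMIs, and Gcg exceeded insulin in 6 of 6 and 8 of 9 of them. Of these insulin-high cells 5 of 6 and 8 of 9 were Iapp-high, and 4 of 6 and 8 of 9 were Ghrl-high. No WT or KO endocrine-like cell was high for insulin without being high for Gcg.

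Ghrl-high cells were found with and without Gcg. In WT 10 of 12 were also Gcg-high and the other 2 had 0 Gcg UMIs. In KO 21 of 30 were Gcg-high, and 8 of the other 9 had 0 Gcg UMIs. Both of these WT cells and 3 of the 9 KO cells were Neurog3-led, a sub-cluster with no Gcg-high cell. Within the Cartpt/Gast-led cells all 10 Ghrl-high WT cells and 21 of 27 in KO were Gcg-high. The KO cell with the most Ghrl held 465 Ghrl, 90 Pyy and 0 Gcg UMIs, while the third in order held 385 Ghrl beside 933 Gcg and 88 Ins1 UMIs. Ghrl exceeded Gcg in 3 of 12 and 15 of 30 of the Ghrl-high cells. Of the 4 KO cells high for Sst all were Gcg-high and Pyy-high, as was the 1 WT cell.

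**Figure D3:**
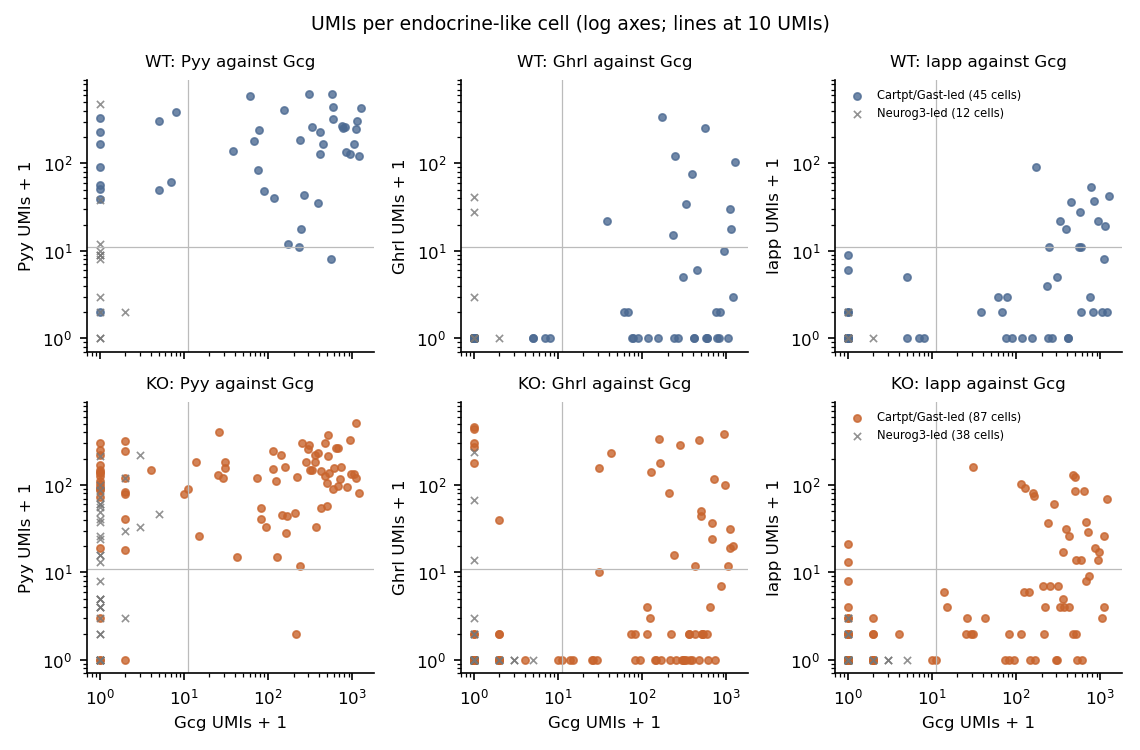
UMIs per endocrine-like cell plus 1 (log axes) of Pyy, Ghrl and Iapp against Gcg, WT above and KO below; circles are Cartpt/Gast-led cells, crosses Neurog3-led cells, and the lines mark 10 UMIs. Nearly all Gcg-high cells lie above the Pyy line, Ghrl-high cells lie on both sides of the Gcg line, and Iapp-high cells lie to its right except for 2 KO cells.

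Rank correlations over the endocrine-like cells described the same pairs, and are given with no p because the cells share a library and a depth range. For Gcg with Iapp, Spearman's rho on UMIs was 0.58 (57 WT cells) and 0.61 (125 KO cells). It was 0.62 and 0.64 for Ghrl with Iapp, 0.59 and 0.52 for Ghrl with Ins1, and 0.57 and 0.51 for Pyy with Sct. Ghrl and Sct were opposed (-0.31 and -0.28). Gcg with Cck was 0.00 in WT and -0.29 in KO. UMIs per 10000 UMIs of the cell scale each cell to the same total, though zeros still depend on depth. On these the values were 0.52 and 0.57 for Gcg with Iapp, -0.45 and -0.40 for Ghrl with Sct, and 0.48 and 0.43 for Pyy with Sct. On that scale Gcg with Cck was -0.09 in WT and -0.44 in KO. Within the Cartpt/Gast-led cells on that scale Gcg with Cck was 0.22 in WT and -0.30 in KO, and Gcg with Iapp 0.40 and 0.43. Ghrl with Sct was -0.59 and -0.58 there, and Pyy with Sct 0.60 and 0.48. With each cell thinned to 2000 UMIs, the values over 57 WT and 124 KO endocrine-like cells were 0.40 and 0.57 for Gcg with Iapp. They were -0.44 and -0.32 for Ghrl with Sct, 0.44 and 0.28 for Pyy with Sct, and -0.01 and -0.46 for Gcg with Cck.

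**Figure D4:**
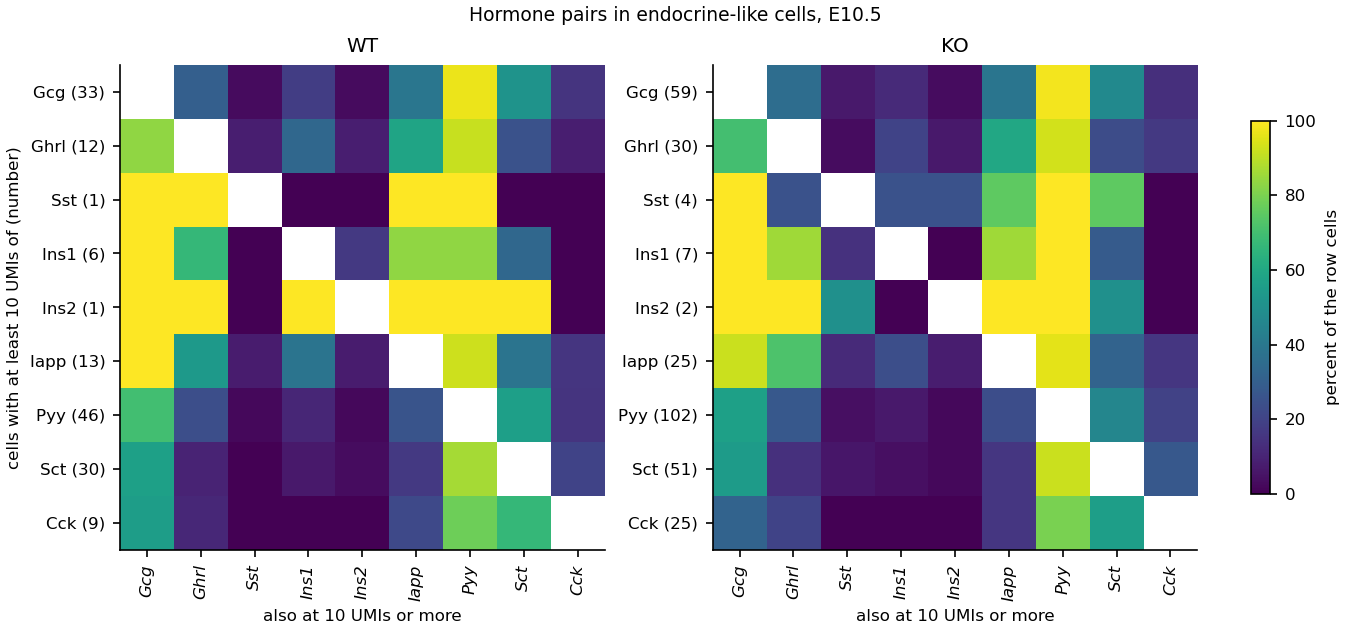
Percent of the endocrine-like cells with at least 10 UMIs of the row hormone (number of cells in parentheses) that also had at least 10 UMIs of the column hormone, for WT and KO; Gip is left out because no KO cell reached 10 UMIs. The Pyy column is high for nearly every row, and the Sst, Ins1 and Ins2 rows rest on 7 or fewer cells each.

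Genes with the cell-to-cell pattern most like each hormone were taken by the lower of the WT and KO Pearson r of log values among 4245 genes. For Gcg they were Pcsk2 (r of 0.67 in WT and 0.66 in KO), the convertase that cuts proglucagon in alpha cells, Gnas (0.69 and 0.65) and Ttr (0.81 and 0.61). For Ghrl they were Gal (0.71 and 0.65), which encodes galanin, Iapp (0.61 and 0.61) and Ccnd2 (0.50 and 0.52). Ins1 was most like Gal (0.58 and 0.58), Iapp (0.55 and 0.55) and Ghrl (0.68 and 0.54), and Iapp most like Ghrl, Gal and Pcsk2. Pyy was most like Ttr (0.62 and 0.73), Rbp4 (0.80 and 0.55) and Peg10 (0.67 and 0.50). Sct was most like Cd81, Ggct and Cpe, with lower values from 0.35 to 0.41, and Cck was like Mfap4 (lower value 0.43) and Ppp1r14b (0.34). For Sst and Ins2 the highest values were 0.28 and 0.32. All these r were taken over both sub-clusters together, so they also hold the difference between the sub-clusters. Pcsk2, for one, is among the leading genes of the Cartpt/Gast-led sub-cluster. Likeness within a sub-cluster was not computed.

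The third question was how far hormone RNA appeared outside the endocrine-like cluster. Cluster 4 held 35.1% of the kept WT Gcg UMIs and 31.1% of the KO ones, and 31.8% and 26.2% of all hormone UMIs. Its Pyy to Gcg ratio was 0.41 and 0.44 against 0.58 and 0.60. Of its 18 WT and 29 KO Gcg-high cells, 17 and 27 also had a collagen UMI, against 17 of 33 and 37 of 59 in the endocrine-like cluster, whose cells held fewer UMIs.

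All other kept cells (364 WT and 195 KO) held 208 hormone CPM in WT and 452 in KO. Without cells that had at least 3 endocrine markers the values over all cells outside the endocrine-like cluster were 72.4 and 198 CPM. Gcg was at 73.6 CPM in WT (64.0 to 84.1) and 59.3 in KO (48.7 to 71.5), and Pyy at 99.8 (88.6 to 112) and 353 (326 to 381). Ins1, Ins2 and Gip had 0 UMIs in these 364 WT cells, which allows a share of cells with a UMI of up to 0.824%. In KO Ins1 and Ins2 had 1 UMI each and Gip 0 UMIs, which allows up to 1.54% of the 195 cells.

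A Gcg UMI was found in 20.8% of WT and 29.1% of KO mesenchyme-like cells (cluster 0) and in 20.3% and 42.5% of pancreatic progenitor-like cells (cluster 1). With each cell thinned to 2000 UMIs the shares were 16 of 107 WT and 13 of 64 KO cells, or 20.3% for KO, in the mesenchyme-like cells (52 WT and 39 KO shallower cells left out) and 3.36% and 12.9% in the progenitor-like cells (4 and 3 left out), against 63.2% and 50.8% in the endocrine-like cells. Thinned values near that of 1 UMI per cell carry no order. The part that free RNA has in these UMIs was not tested.

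In the progenitor-like cells Pyy exceeded Gcg. Their Pyy to Gcg ratio was 3.26 in WT (2.16 to 5.04) and 11.2 in KO (8.21 to 15.7), against 0.58 and 0.60 in the endocrine-like cells and 3.05 and 1.38 in the barcodes below the gene minimum. Single cells carried much of it: of 483 KO Pyy UMIs there, 261 were in 1 cell and 60 in another, and without these the count was 162. Of the 101 WT Pyy UMIs 69 came from 2 cells, both with at least 3 endocrine markers. The 32 WT UMIs left were close to the 31 of Gcg, while in KO the 162 left still exceeded the 43 of Gcg. In the mesenchyme-like cells the Pyy to Gcg ratio was 0.91 in WT (0.73 to 1.14) and 2.52 in KO (1.88 to 3.42). Of the 171 WT Gcg UMIs in the mesenchyme-like cells 62 were in 1 cell, and all 4 cells with at least 10 Gcg UMIs there had at least 3 endocrine markers.

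The fourth question was how the hormone genes differed between genotypes in the endocrine-like RNA cells. Of the 10 hormone genes, 1 was past 2-fold higher in KO (Ghrl), where 0.341% of 5866 genes were, and 1 was past 2-fold lower (Gip), where 0.136% were. Gip (73 WT and 14 KO UMIs) passed the minimum of UMIs only through WT, where most of its UMIs lay in 1 cell. Nothing is therefore read from the count of lower genes. The median log2 ratio over the 10 genes was -0.26, against 0.08 over all genes tested. Scaling by the median gene would lower each log2 ratio by 0.11.

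Ghrl had 1093 UMIs in WT and 4633 in KO, or 1611 against 3673 CPM, a ratio of 2.28 (2.13 to 2.44) and a log2 of 1.18. It was high in 12 of 57 WT cells and 30 of 125 KO cells, or 21.1% (11.4% to 33.9%) and 24% (16.8% to 32.5%), intervals that overlap. In these high cells the median was 36.5 UMIs in WT (14 to 336) and 107 in KO (11 to 465). The ratio was 2.49 (2.33 to 2.67) in the Cartpt/Gast-led cells and 1.70 (1.31 to 2.24) in the Neurog3-led cells. The Neurog3-led ratio rests on few cells: a single KO cell held 237 of the 320 UMIs there, and a single WT cell 40 of the 69. That ratio was not computed without these cells, so it is not read as a second case of the KO excess. Over all endocrine-like cells, without the cell with the most Ghrl in each library, the log2 was 1.56. It fell below the 2-fold line with each cell thinned to 2000 UMIs (0.81) and when each cell was given equal weight (0.71). The KO excess of Ghrl was not seen in cluster 4, with 320 UMIs in 30 WT cells and 454 in 49 KO cells.

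Gip had 73 UMIs in WT and 14 in KO (108 and 11.1 CPM, ratio 0.10, 0.054 to 0.18), and reached the minimum of 50 UMIs through WT. Since 49 of the 73 were in 1 WT cell, the log2 of -2.48 became -1.37 without the cell with the most Gip in each library. Iapp was 1.82-fold (1.63 to 2.03) higher in KO, below the 2-fold line, and 2.00-fold (1.79 to 2.23) in the Cartpt/Gast-led cells. Its log2 of 0.85 became 1.02 without the cell with the most Iapp in each library. Cluster 4 showed no KO excess of Iapp either, with 321 UMIs in 30 WT cells and 370 in 49 KO cells. Sst (1.52, 1.23 to 1.89) and Cck (1.52, 1.32 to 1.76) had ratios above 1, and that of Sst rested on few cells: without the top cell of each library its log2 moved from 0.58 to 2.88.

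Gcg (KO over WT ratio 0.73, 0.72 to 0.75), Pyy (0.76, 0.74 to 0.78), Sct (0.81, 0.75 to 0.87) and Ins1 (0.79, 0.67 to 0.94) were lower in KO by less than 2-fold, and the interval of Ins2 (0.86, 0.66 to 1.12) spanned 1. The Ins2 log2 of -0.20 became 0.20 without the cell with the most Ins2 in each library. In cells chosen instead by at least 3 endocrine markers (153 WT and 213 KO) the log2 was -0.041 for Gcg and turned to 0.05 for Pyy, 0.18 for Sct, 0.05 for Ins1 and 0.19 for Ins2, so the lower KO values do not hold in that wider class. That class also held 32 WT and 23 KO cells of cluster 0 and 29 and 16 of cluster 1. It thus mixed cell types unequally between the libraries, and the part of this in the shift was not tested. The make-up of the endocrine-like cluster differed between the libraries as well. The Neurog3-led cells were 21.1% (11.4% to 33.9%) of the WT and 30.4% (22.5% to 39.3%) of the KO endocrine-like cells. Within the Cartpt/Gast-led cells the Gcg ratio was 0.80 (0.79 to 0.82) and the Pyy ratio 0.80 (0.77 to 0.82), and the Ins1 interval (0.74 to 1.04) spanned 1. The summed hepatobiliary list stood at 7879 CPM in WT and 6383 in KO, and the mesenchyme list at 187 and 207 with 15 and 14 of 16 genes detected (Nkx3-2 at 0 in both, Twist1 at 0 in KO); their part in the hormone ratios was not tested. Neurog3 itself had 61.9 CPM in WT and 134 in KO.

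The other lists of the hormone programme are given beside all 5866 genes tested, of which 0.341% were past 2-fold higher in KO and 0.136% lower. Of 20 other peptide genes 6 had enough UMIs to test, and 1 was higher (Cartpt, 292 to 639 CPM, log2 1.10) and 1 lower (Gast, 252 to 117, log2 -1.05). Of 11 prohormone processing genes 10 were tested and none passed, from Pcsk1n (log2 -0.50), an inhibitor of convertase 1, to Scg5 (0.82), a chaperone of convertase 2. Pcsk2 (768 and 601 CPM) and the carboxypeptidase Cpe (676 and 598) were the most abundant of them. Pcsk1, the convertase that cuts proinsulin, had 87.0 and 77.7 CPM, and Mboat4, the enzyme that acylates ghrelin, 44.2 and 56.3. Of 22 hormone receptor genes 3 were tested and none passed: Igf1r (log2 0.58), Ramp2 (0.46) and Sstr2 (0.41). Of 23 hormone gene regulators 19 were tested and 1 passed, Neurog3 (higher, log2 1.00), and the lowest was Pdx1 (-0.92), a factor of progenitors and beta cells. Isl1 (1192 and 1527 CPM) and Pax6 (441 and 474) were the most abundant. Pax4 had 3 WT and 39 KO UMIs, too few to test.

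The chromatin tables give a signal for each gene and cell in which each cell sums to 10000 over the listed genes; the bases summed for each gene are unstated (not given in the sources used here). Endocrine-like cells, named from 28 non-hormone markers after clustering without the hormone genes, numbered 61 of 838 in WT and 65 of 700 in KO at E10.5, and 378 of 2314 and 48 of 602 at E13.5. They had a median of 5015 and 4659 genes above 0 at E10.5 and 4412 and 4744.5 at E13.5. Red-cell-like cells were 6.05% of the WT and 45.2% of the KO cells at E13.5. The depth behind a value is unknown, so no interval is given.

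At E10.5 the hormone genes with much RNA had more signal in endocrine-like cells than in other cells, and the insulin genes did not. The mean Gcg signal was 1.32 in WT endocrine-like cells against 0.63 in other cells, and 0.77 against 0.52 in KO. For Pyy the means were 2.87 against 1.22 and 2.51 against 1.34. Iapp (1.39 against 0.73 and 1.65 against 0.60), Ghrl (1.54 against 0.78 and 1.54 against 0.98) and Sct (3.09 against 1.49 and 3.19 against 1.87) were higher as well. Ins1 was lower, at 0.26 against 0.83 in WT and 0.41 against 0.73 in KO. A single WT cell held 37.2% of the Ins1 and a single WT cell 42.1% of the Ins2 endocrine-like signal.

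At a log2 of 0.5, 5 of the 9 listed hormone genes (Gcg, Ghrl, Iapp, Pyy and Sct) were higher in endocrine-like cells in WT, where 9.26% of all genes were, and the same 5 in KO, where 9.45% were. Ins1 was lower in both, where 13.8% and 14.6% of all genes were. The count of 1 of 9 lower in each library is close to those shares, and nothing is read from it. Sst (log2 0.01 and 0.00), Ins2 (0.00 and -0.14) and Cck (0.02 and -0.15) were near 0. Of the 23 hormone gene regulators 21 were tested, and 13 were higher in each library with none lower.

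At E13.5 the endocrine-like cells of the WT library were higher than other cells for Gcg (log2 0.62), Iapp (0.68), Sct (0.91) and Cck (0.69), 4 of 9 where 5.32% of all genes were, with none lower where 5.98% were. In KO 8 of 9 were higher, all but Sst, from Sct (0.98) to Gcg (2.60). There 272 of the 554 other cells were red-cell-like, and 25.1% of all genes were higher and 20.9% lower. Against the KO cells that were neither endocrine-like nor red-cell-like, 5 of 9 were higher, Gcg (1.54 against 0.43, log2 1.86), Ghrl (2.08), Ins1 (1.14), Iapp (0.71) and Pyy (0.98), where 13.7% of all genes were, and none was lower, where 16% were. Sct (0.23), Cck (0.26) and Ins2 (0.38) no longer passed. In WT the same 4 were higher against such cells, from Gcg (0.53) to Sct (0.81), where 4.81% of all genes were, and none was lower, where 6.2% were.

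**Figure D5:**
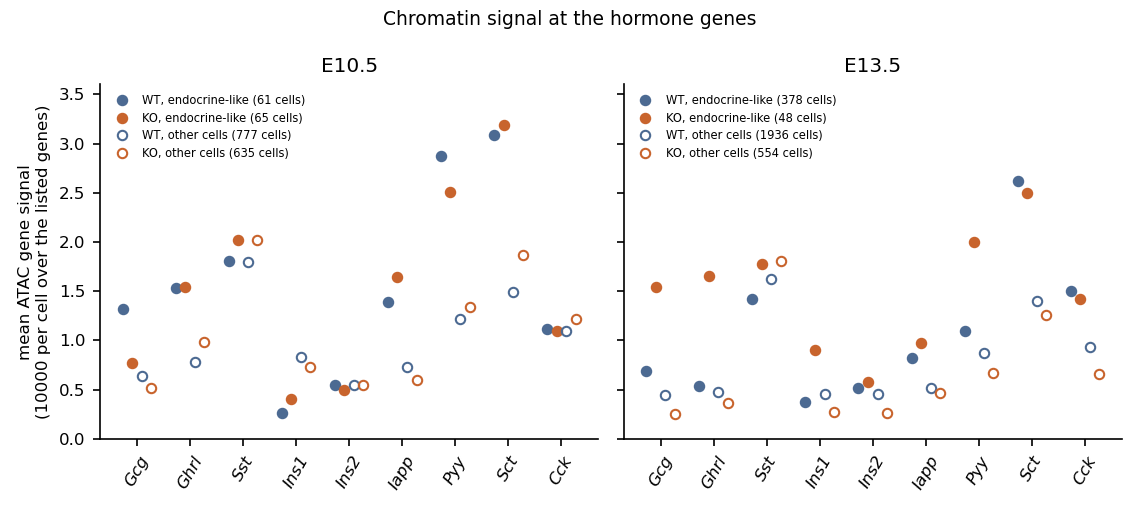
Mean chromatin signal at the 9 listed hormone genes in endocrine-like cells (filled) and other cells (open) of the WT (blue) and KO (orange) libraries at E10.5 and E13.5. At E10.5 the Ins1 signal is below that of other cells in both genotypes, and at E13.5 the KO endocrine-like cells lie above the WT ones for Gcg, Ghrl, Ins1 and Pyy.

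Between genotypes, over all cells, no listed hormone gene passed a log2 of 0.5 at E10.5, where 0.231% of genes were higher and 0.414% lower. The values ran from -0.34 for Gcg to 0.31 for Ghrl. At E13.5 Ins2 (-0.69) and Cck (-0.52) were lower in KO over all cells, where 16.0% of genes were lower and 9.36% higher. Within the endocrine-like cells Ins2 was at 0.17 and Cck at -0.08, and without the red-cell-like cells Cck was at 0.17.

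In the endocrine-like cells at E10.5, Gcg was lower in KO (1.32 to 0.77, log2 -0.77), where 8.95% of genes were lower, and Ins1 was higher (0.26 to 0.41, log2 0.63), where 7.67% were higher. Both counts, 1 of 9 each, are close to those shares. Among cells with at least 4000 genes above 0 (49 WT and 46 KO) the Gcg log2 was -0.034, at a finer cluster resolution -0.46, and without the 10% of cells at each end of depth -0.40, so the Gcg call does not hold under these 3 alternatives. Ins1 became 0.19 at that resolution and 0.48 with 0.1 added to both means, but 1.20 in the deeper cells and 1.02 without the top cell of each library. Ghrl, the gene with the higher RNA in KO, had the same mean signal in both genotypes (1.54 and 1.54, log2 0.01), and Iapp had a log2 of 0.24.

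In the endocrine-like cells at E13.5, Gcg (0.69 in WT and 1.54 in KO, log2 1.17), Ghrl (0.54 and 1.65, 1.62), Ins1 (0.38 and 0.90, 1.26) and Pyy (1.09 and 2.00, 0.87) were higher in KO, 4 of 9 where 9.46% of genes were, and none was lower where 9.70% were. Gcg was above 0 in 39.4% of the WT and 68.8% of the KO endocrine-like cells, and Ghrl in 15.9% and 35.4%. In the KO library 1 of 48 cells held 26.1% of the Ghrl signal, and without the top cell of each library the Ghrl log2 was 1.29. Iapp (0.24), Ins2 (0.17), Sst (0.32), Sct (-0.07) and Cck (-0.08) did not pass.

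Between stages, in the WT endocrine-like cells Ghrl (1.54 to 0.54, log2 -1.52), Pyy (2.87 to 1.09, -1.39), Gcg (1.32 to 0.69, -0.94) and Iapp (1.39 to 0.82, -0.76) were lower at E13.5, where 6.72% of genes were, and Ins1 was higher (0.26 to 0.38, log2 0.51), where 7.99% were. In the KO endocrine-like cells Gcg (0.77 to 1.54, 0.99) and Ins1 (0.41 to 0.90, 1.14) were higher, where 13.3% of genes were, and Iapp (1.65 to 0.97, -0.76) was lower, where 10.9% were. The WT count of 1 of 9 higher and the KO count of 1 of 9 lower are close to their shares, and nothing is read from them. The 2 Gcg values are opposite in sign. The tables of the 2 stages were deposited separately, so a difference between stages also holds any difference in how they were made. Over all cells the stage differences ran from -0.82 (Ins1) to -0.01 (Sct) in WT and from -1.13 (Ghrl and Ins1) to -0.16 (Sst) in KO.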

How the data were processed

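Single-cell RNA counts at E10.5 and single-cell ATAC signal at E10.5 and E13.5 were analysed in 6 libraries, 1 per group. The RNA table holds whole-number UMI counts per gene and cell as deposited by the authors, from a 10x Genomics 3′ kit (v3) per the labels. The ATAC tables hold a signal per gene and cell as deposited by the authors, scaled to 10000 per cell; caller and gene windows: not given in the sources used here. Genome build: mm10 per the submitters' processing notes. The 10 genes and all other lists were chosen with earlier results of these data known, though the choice of members set no threshold on a value.

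Barcodes under 1000 detected genes were left out of the RNA clusters. Cells were clustered with scanpy 1.11.5 (2000 variable genes, 30 principal components, 15 neighbours, Leiden resolution 0.3) without the hormone genes, Ptf1a and tip and acinar genes, and clusters were named from fixed marker lists. Resolution 0.5 gave the endocrine sub-clusters. Doublets were called and kept. Counts were summed per library and cluster, given as CPM, and compared as log2 of KO over WT with 10 CPM added, for genes with at least 50 UMIs; ATAC means were compared for genes above 0 in at least 10% of cells. Intervals (95%) are exact Poisson for sums, exact binomial for shares and exact conditional for ratios, and cover counting error only; a count of 0 allows 3 counts. No column belonged to another series. The libraries shared 1 cell barcode between WT and KO RNA. Named genes were all members, the most abundant 2 and the extremes of each other list, and the 3 genes most like each member with at least 200 UMIs; Pcsk1, Mboat4, Pax4 and Ramp2 were added after their values were seen. Some named genes are not reported here. Calculations of ratios were tested on simulated data. Alternatives changed the cell filter, resolution, class rule, scaling, pseudocount, thinning and thresholds.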

Additional observations from a re-analysis of the deposited data

Results flagged for a closer look

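The Gcg chromatin signal in endocrine-like cells differed in direction between conditions, and the difference was not tested, since each group is 1 library. KO over WT it had a log2 of -0.77 at E10.5 and 1.17 at E13.5. E13.5 over E10.5 it had a log2 of -0.94 in WT and 0.99 in KO. These 4 values share the same 4 means. The E10.5 value was -0.034 among cells with at least 4000 genes above 0, and the E13.5 value rests on 48 KO cells and 2 libraries whose barcodes name different months.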

How the results depend on the processing

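No paired analysis was possible because each group is 1 library. The summed hormone log2 ratio in endocrine-like RNA cells (-0.28) was -0.35 with no cell filter and -0.37 at 500 genes. It was -0.17 outside the Neurog3-led cells and -0.33 with cluster 4 added. Median-of-ratios scaling gave -0.38 and thinning -0.23. It turned to 0.11 in cells chosen by at least 3 endocrine markers, a wider class of 153 WT and 213 KO cells. That class held cells of other clusters in unequal parts in the WT and KO libraries. Hormone UMIs outside the endocrine-like cluster (4223 CPM in WT, 6171 in KO) were 2192 and 4045 at 500 genes, 72.4 and 198 without cells having 3 endocrine markers, and, with marker-bearing cells kept, 208 and 452 without cluster 4. The E10.5 Gcg chromatin ratio was -0.40 without the 10% of cells at each end of depth, -0.46 at resolution 0.5 and -0.034 in the deeper cells; the cause was not tested. The KO E13.5 Gcg ratio of endocrine-like over other cells (2.60) was 1.86 with red-cell-like cells left out of the others. Over all cells at E13.5, KO over WT turned to 0.17 for Ins2 in endocrine-like cells and to 0.17 for Cck without red-cell-like cells. The stage difference over all cells turned in endocrine-like cells to 0.51 for Ins1 in WT, and in KO to 0.99 for Gcg, 0.10 for Ghrl, 1.14 for Ins1, 0.25 for Ins2 and 0.37 for Cck. The share of Gcg-high cells also high for Ghrl stayed within its interval under the alternatives run in both libraries. Leaving out a replicate was not possible. Adding cluster 4, leaving out the Neurog3-led, shallower or top cells and taking red-cell-like cells out of the other E13.5 cells were chosen after seeing the data. Of 871 alternative values, 682 for single genes or pairs and 53 for the main comparisons were labelled the same as the main value. For RNA the label rests on the counting interval of the main value. For chromatin, which has no interval, it means within a log2 of 0.5 with the same call. Some alternatives left the values unchanged, such as RNA resolution 0.5, which gave the same endocrine-like cells, or dropping the minimum of UMIs. The counts therefore do not measure robustness.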
